A study of Mus musculus with 112 samples.

Results

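Goblet cells are the mucus-secreting cells of the intestinal epithelium. Their granules hold the gel-forming mucin Muc2, which is folded in the endoplasmic reticulum, heavily O-glycosylated in the Golgi and released together with proteins that shape the mucus gel. The 8 genes described here are Muc2, Zg16, Agr2, Tff3, Fcgbp, Clca1, Spink4 and Muc13, taken by name as genes of goblet cell mucus and secretion out of 32285 genes in the count table. Each symbol matched 1 Ensembl gene, and all 8 passed the filter on low counts (minimum count 10) in every comparison.

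The series measured bulk RNA from sorted crypt cells of the proximal small intestine of young mice (2 to 3 months) and aged mice (23 to 27 months), males and females. Every animal was a C57BL/6 mouse of the genotype Lgr5-eGFP-IRES-CreERT2, in which the stem cell gene Lgr5 drives eGFP and CreERT2, and no treatment is labelled for any group. Intestinal stem cells (ISCs) were sorted as GFP high and CD24 low, progenitors as GFP medium or low and CD24 low, and Paneth cells, the antimicrobial cells of the crypt base, as GFP-negative cells with high CD24 and high side scatter. All 3 gates required high EPCAM and none selected goblet cells, so each member was read in populations sorted for other cell types. There were 11 young and 12 aged ISC samples, 10 and 10 progenitor samples, and 12 and 12 Paneth samples, with 5 to 7 animals in each group of cell type, age and sex. The 69 Paneth libraries were technical replicates and were summed per animal, which left 67 samples from 36 named animals.

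Total counts ran from 2176833 to 5586711 in ISCs, from 2476086 to 7569896 in progenitors and from 2823489 to 11821614 in Paneth samples. Mitochondrially encoded transcripts took 3.6% to 9.69% of the counts in ISCs, 1.58% to 7.05% in progenitors and 31.4% to 73.4% in Paneth samples, so levels below are CPM (counts divided by a scaled library total) after TMM scaling, which sets libraries against each other by the bulk of their genes. Stem cell markers were highest in the ISC gate (Olfm4 on average 7580 CPM in young ISCs) and Paneth markers in the Paneth gate (Lyz1 on average 58000 CPM in young Paneth samples). The Paneth gate also held tuft cell markers, at a median sum of 408 CPM in young and 335 CPM in aged samples over 6 genes, against at most 17.2 CPM in any ISC or progenitor library, where Gnat3 was at 0. The names of the ISC samples fall into 3 sets, ending in 1 (13 samples), in 2 (3) or in no number (7), and the labels do not say what the ending stands for. These sets differed: total counts ran from 2176833 to 3347132 in samples with no number and from 3432905 to 5586711 in those ending in 1, and the ranges of Agr2 in the 2 sets, 159.9 to 327.9 CPM and 61.25 to 134.6 CPM, did not overlap. Samples with no number were 2 of 5 young males, 3 of 6 young females, 0 of 7 aged males and 2 of 5 aged females, so ISC results below are also given within these sets. Among progenitors the only numbered names, ending in 2, were those of the 3 aged males of 26 and 27 months. Some libraries stood apart from their group in several members. Young female ISC sample 6 had a summed level of the 8 genes of 1990 CPM against 809 to 1110 CPM in the other 5 of its group. Its name has no number. Aged male Paneth sample 2 had 13800 CPM against 5670 to 7880 CPM in the other 6.

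The genes differ in the step of mucus production they serve. Muc2, the main secreted gel-forming mucin of the intestine, lies at chr7:141690340-141754693 on the plus strand (GRCm38, GENCODE vM21). Agr2, a protein disulfide isomerase of the endoplasmic reticulum needed for mucin production, lies at chr12:35992907-36004087 on the plus strand. Fcgbp, a large mucus protein that binds the Fc part of IgG, lies at chr7:28071236-28120862 on the plus strand. Zg16, a lectin-like protein that binds bacteria, lies at chr7:127050156-127087328 on the minus strand. Clca1, a secreted metalloprotease that processes Muc2, lies at chr3:145003817-145032776 on the minus strand. Tff3, a trefoil peptide of mucosal repair, lies at chr17:31125306-31129646 on the minus strand, and Spink4, a Kazal-type serine peptidase inhibitor, at chr4:40920052-40931395 on the plus strand. Muc13, a membrane-bound mucin of the cell surface that is not limited to goblet cells, lies at chr16:33794037-33819934 on the plus strand, where an exon of the antisense gene Gm15657 overlaps it. No label says whether the counting used strand, so counts of Muc13 may include reads of that gene. No other member shares exon sequence with an annotated gene.

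Upstream sequences were available for 4 of the 8 genes in the RefSeq promoter table (GRCm38.p6). They are shown for the gel mucin Muc2, the folding enzyme Agr2, the mucus protein Fcgbp and the membrane mucin Muc13, which all varied together between animals in progenitors. Each stretch starts 250 bases before the RefSeq start and ends before both that start and the GENCODE gene. They are Muc2 at chr7:141690090-141690339, Agr2 at chr12:35992675-35992906, Fcgbp at chr7:28070986-28071235 and Muc13 at chr16:33793787-33794036, all on the plus strand. Capitals mark every match, on either strand, to 8 short motifs, which are the TATA box TATAAA, the E-box CAGCTG, a second E-box CAGATG, the forkhead motif TGTTTAC, the caudal motif TTTATNG, the GATA motif AGATAA, the CCAAT box and the endoplasmic reticulum stress core ACGTGG.
Muc2: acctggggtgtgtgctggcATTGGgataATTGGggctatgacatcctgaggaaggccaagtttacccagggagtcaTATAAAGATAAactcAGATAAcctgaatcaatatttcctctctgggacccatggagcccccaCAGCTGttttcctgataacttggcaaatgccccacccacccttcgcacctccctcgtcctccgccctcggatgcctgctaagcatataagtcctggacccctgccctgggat
Agr2: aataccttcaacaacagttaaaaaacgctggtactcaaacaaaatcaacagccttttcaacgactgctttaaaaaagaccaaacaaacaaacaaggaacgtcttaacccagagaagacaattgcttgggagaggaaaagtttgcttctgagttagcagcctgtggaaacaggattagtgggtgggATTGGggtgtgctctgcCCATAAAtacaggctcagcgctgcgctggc
Fcgbp: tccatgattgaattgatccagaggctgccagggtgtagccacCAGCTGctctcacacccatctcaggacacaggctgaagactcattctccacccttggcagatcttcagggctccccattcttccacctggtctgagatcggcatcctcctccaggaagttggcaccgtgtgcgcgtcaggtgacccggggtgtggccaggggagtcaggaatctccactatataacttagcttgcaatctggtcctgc
Muc13: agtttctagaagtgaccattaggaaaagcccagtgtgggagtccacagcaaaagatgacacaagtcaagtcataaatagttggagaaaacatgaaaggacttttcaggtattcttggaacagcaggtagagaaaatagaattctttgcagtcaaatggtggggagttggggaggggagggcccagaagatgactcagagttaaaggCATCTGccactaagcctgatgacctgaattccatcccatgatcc
The E-box CAGCTG stood in the Muc2 and Fcgbp stretches, at -112 and -208 from the start, and in 13.0% of all 32851 windows of 250 bases before a start. Muc2 also held TATAAA at -174 (12.4% of windows), which shares 1 base with the first of its AGATAA matches at -169 and -159 (9.99%), and the reverse of CCAAT at -231 and -222 (33.8%). In Agr2 the reverse of TTTATNG lay at -48 (9.81%) and that of CCAAT at -65. The only match in the Muc13 stretch was the reverse of CAGATG at -44 (14.4%). TGTTTAC and ACGTGG matched none of the 4 stretches and 3.17% and 6.91% of all windows. These matches are letters in a window, not measured binding.

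The progenitor gate carried the highest median levels of 6 of the 8 genes and the ISC gate the lowest of all 8. With library totals alone, however, Muc13, Fcgbp and, in young mice, Clca1 turned lower in the Paneth gate than in ISCs. Added together, the 8 genes had a lowest, median and highest level of 808.9, 1046 and 2286 CPM in ISCs, 9076, 19880 and 34940 CPM in progenitors, and 4630, 7074 and 13840 CPM in Paneth samples. Their counts made up a median of 0.162% of a library in ISCs, 2.8% in progenitors and 0.348% in Paneth samples, or 0.801% of the Paneth libraries once mitochondrially encoded genes were set aside. In bulk samples like these, fewer cells of a type and less RNA per cell cannot be told apart. Levels are of 3′-end counts, not divided by length, so cell types are ordered within a gene and genes are not ranked against each other.

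**Figure D1:**
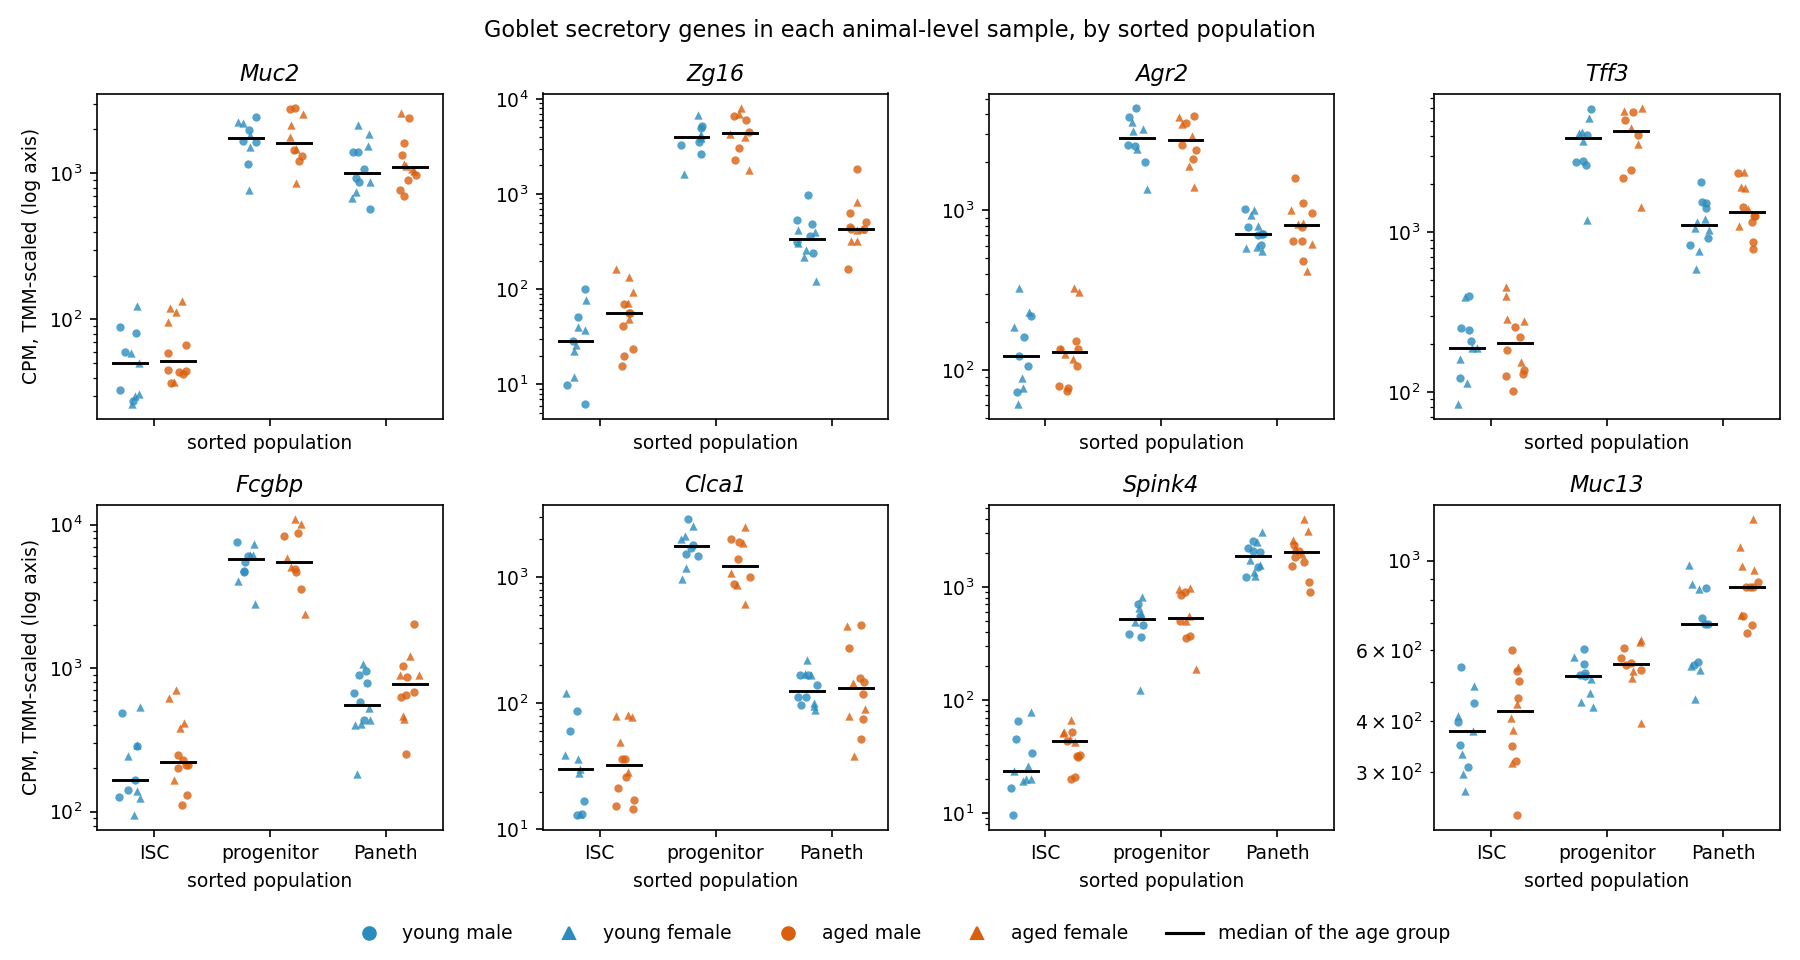
TMM-scaled CPM (log axis) of each gene in every animal-level sample of the ISC, progenitor and Paneth gates; circles are males, triangles females, blue young, orange aged, and bars the median of an age group. Young and aged points overlap in every gate and gene. In 7 genes, all but Muc13, every progenitor point lies above every ISC point of its age, against 4.68% (young) and 3.85% (aged) of all genes.

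Muc2 had a lowest, median and highest level of 26.42, 50.65 and 133.7 CPM in ISCs, 770.5, 1722 and 2790 CPM in progenitors, and 574.4, 1072 and 2597 CPM in Paneth samples. The ISC range lay below both others, and the progenitor and Paneth ranges overlapped. Among the mucus proteins, Fcgbp ran over 94.79, 212.8 and 706.1 CPM in ISCs, 2401, 5662 and 10860 CPM in progenitors, and 183.3, 661.7 and 2040 CPM in Paneth samples. Its progenitor range stood above the other gates, which overlapped. Zg16 showed the widest spread in ISCs, with 6.242, 41.26 and 163.8 CPM, a 26.2-fold range, and reached 1642, 4106 and 7957 CPM in progenitors and 122.2, 419.8 and 1854 CPM in Paneth samples. Its Paneth range met both the ISC range below and the progenitor range above. Clca1 was at 13.01, 30 and 119.9 CPM in ISCs, 614.7, 1616 and 2882 CPM in progenitors, and 38.05, 129.1 and 417.3 CPM in Paneth samples, where it overlapped ISCs but not progenitors.

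Agr2, the folding enzyme, had 61.25, 125.4 and 327.9 CPM in ISCs, 1367, 2739 and 4345 CPM in progenitors, and 415, 745.7 and 1600 CPM in Paneth samples. Tff3 had 84.03, 189.3 and 452.7 CPM in ISCs, 1194, 4092 and 6000 CPM in progenitors, and 588.2, 1239 and 2406 CPM in Paneth samples. For both genes the ISC range lay below the Paneth range, and the Paneth range ran into the lower end of the progenitor range. Spink4 had another order, with 9.623, 32.43 and 78.33 CPM in ISCs, 122.8, 526.8 and 976.5 CPM in progenitors, and 907.1, 1992 and 3952 CPM in Paneth samples. Its Paneth samples were the highest, its ISC samples lay below all others, and the top of the progenitor range met the bottom of the Paneth range. Muc13 differed least between gates, with 234.6, 399.4 and 602 CPM in ISCs, 395.6, 535.3 and 634.8 CPM in progenitors, and 455.8, 791.8 and 1265 CPM in Paneth samples, and neighbouring gates overlapped.

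The comparison of progenitors with ISCs sets the 2 gates of the stem cell reporter against each other. In young mice all 8 genes were higher in progenitors (edgeR's quasi-likelihood test, adjusted p below 0.05 over 13287 genes), where 13.3% of all genes tested were higher and 9.47% lower. The largest difference was that of Zg16, at 6.75 ± 0.47 (SE) on the log2 scale, or 108-fold (adjusted p = 7.39e-18). Clca1 followed with 5.48 ± 0.43 (44.7-fold, adjusted p = 6.56e-16), Muc2 with 4.97 ± 0.31 (31.4-fold, adjusted p = 2.81e-19) and Fcgbp with 4.52 ± 0.35 (23-fold, adjusted p = 5.35e-16). Agr2, Tff3 and Spink4 rose 19.5-fold, 17.1-fold and 15.7-fold. Muc13 rose by far less, 0.42 ± 0.13 or 1.34-fold (adjusted p = 0.00834), and this call was lost with library totals alone (log2 difference 0.28, adjusted p = 0.179). The median over the 8 genes was 4.4 and that over all genes tested -0.03.

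In aged mice all 8 genes were higher in progenitors than in ISCs, where 14.1% of all genes were higher and 11% lower, from 6.20 ± 0.45 for Zg16 to 0.39 ± 0.12 for Muc13, with a median of 4.34. The aged call of Muc13 was lost without the animals of 26 and 27 months (0.27, adjusted p = 0.213) and with library totals alone (0.24, adjusted p = 0.233). For 7 of the 8 genes, all but Muc13, every progenitor sample lay above every ISC sample, in young and in aged mice, as was so for 4.68% and 3.85% of all 13287 genes. Without the ISC samples whose names end in 1, an ending no progenitor sample has, all 8 genes were called at both ages. Of all 14235 genes then tested, 1413 were called in young and 1515 in aged mice. Zg16, Clca1 and Fcgbp were at 6.08, 4.76 and 3.89 in young mice under this setting. With the animal as a block (samples of 1 animal in different gates paired), 1635 genes were called between young progenitors and ISCs in place of 3021 and 1894 between aged ones in place of 3329, and all 8 members were among those called in both. Other populations moved between these gates too: summed enterocyte markers (9 of 9 genes found) ran from 112 to 176 CPM in young ISCs and from 450 to 858 CPM in young progenitors, summed Paneth markers (8 of 9) from 215 to 1140 and from 806 to 1500 CPM, and summed enteroendocrine markers (7 of 7) from 3.12 to 36.5 and from 77.9 to 317 CPM. Their part in the result was not tested.

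**Figure D2:**
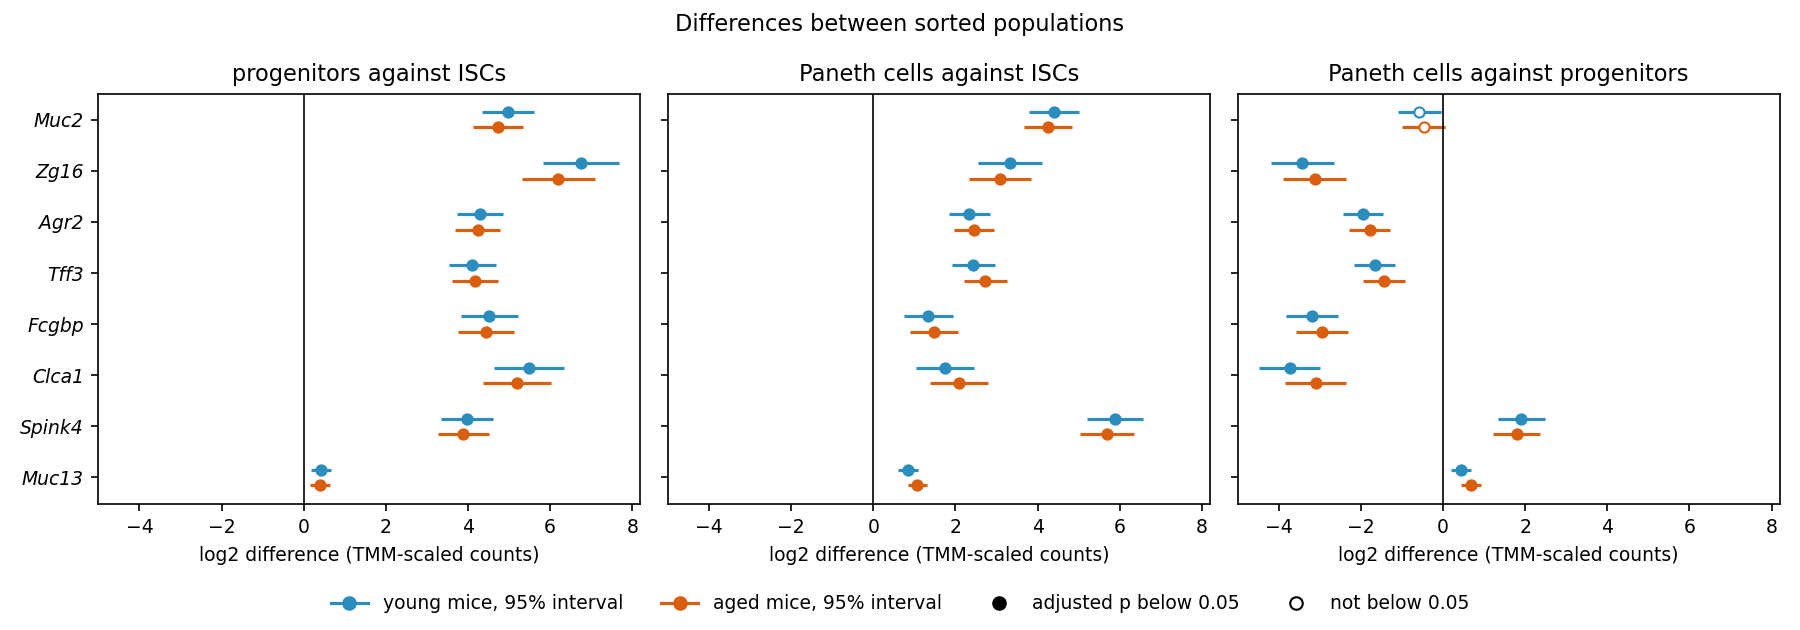
Log2 difference between sorted populations for each gene in young (blue) and aged (orange) mice, with 95% intervals; filled points passed an adjusted p of 0.05 and open points did not. Zg16 shows the largest progenitor difference (6.75 in young mice) and Spink4 the largest Paneth difference from ISCs (5.88); with library totals alone the Paneth differences of Muc13, of Fcgbp and, in young mice, of Clca1 from ISCs turn negative, as does that of Muc13 from progenitors.

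Paneth samples compared with ISCs gave a different order of genes. In young mice all 8 were higher in Paneth samples with TMM scaling, although Fcgbp, Clca1 and Muc13 turned lower with library totals alone; 16.8% of all genes were higher and 12.4% lower. Spink4 led with 5.88 ± 0.34 (58.9-fold, adjusted p = 2.94e-21), followed by Muc2 with 4.4 ± 0.30 (21.1-fold, adjusted p = 2.88e-18) and Zg16 with 3.33 ± 0.39 (10.0-fold). Tff3 and Agr2 were 5.41-fold and 5.06-fold higher, Clca1 3.36-fold, Fcgbp 2.52-fold and Muc13 1.80-fold, the last 3 of which turned lower without scaling. In aged mice all 8 were higher as well, from 5.68 ± 0.33 for Spink4 to 1.07 ± 0.12 for Muc13, although Fcgbp (-0.11) and Muc13 (-0.52) turned lower with library totals alone; 17.3% of all genes were higher and 12.8% lower. In 5 of the 8 genes in young and 6 of the 8 in aged mice every Paneth sample lay above every ISC sample, against 2.45% and 2.15% of all genes. Without the ISC samples whose names end in 1 the young calls of Fcgbp (0.70, adjusted p = 0.203) and Clca1 (1.02, adjusted p = 0.112) were lost. Markers of other cells moved with this comparison: summed enterocyte markers had a median of 145 CPM in young ISCs and 1520 CPM in young Paneth samples, summed enteroendocrine markers 6.69 and 899 CPM, and summed immune markers 1.63 and 69 CPM. Their part in the result was not tested.

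These Paneth values depend on the scaling. With library totals alone the median of all genes was -1.85 (young) and -1.61 (aged) against ISCs and -1.7 and -1.43 against progenitors, and with TMM it lay between -0.016 and 0.0158. Without scaling 5 of the 8 genes were called in young Paneth samples against ISCs, Muc13 among them as lower. Over all genes 11466 of 13287 were then called in either direction. The young Paneth difference from ISCs was -0.45 for Fcgbp, -0.06 for Clca1 and -1.01 for Muc13, and that of Agr2 was 0.51 (adjusted p = 0.0513 by edgeR). Relative to the median of all genes these differences were 1.4 for Fcgbp, 1.8 for Clca1 and 0.84 for Muc13, so no member changed sign against that median. Of the genes called in young Paneth samples against ISCs, 57.4% were higher with TMM scaling and 4.4% with library totals alone. In aged mice the shares were 57.6% and 5.5%, between progenitors and ISCs they were 58.4% and 44.9% in young and 56.1% and 42.2% in aged mice, and against progenitors they were 54% and 3.01% in young and 55.8% and 3.98% in aged mice. DESeq2's size factors moved the young share against progenitors to 64.3%. With limma-voom the Paneth shares were 45.6% (young) and 44.4% (aged) against ISCs and 37.8% and 39.3% against progenitors, so the balance of higher and lower calls turned with that tool.

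Set against progenitors, the Paneth gate split the genes into 3 sets. In young mice 5 genes were lower in Paneth samples, where 12% of all genes were lower: Clca1 at -3.74 ± 0.37 (adjusted p = 8.04e-12), Zg16 at -3.42 ± 0.38, Fcgbp at -3.19 ± 0.32, Agr2 at -1.95 ± 0.24 and Tff3 at -1.67 ± 0.25 on the log2 scale. Spink4, at 1.91 ± 0.29 or 3.75-fold (adjusted p = 4.40e-07), and Muc13, at 0.43 ± 0.12 or 1.35-fold (adjusted p = 0.00534), were higher, as were 14.1% of all genes, though Muc13 turned to -1.29 with library totals alone. Muc2 stood between them at -0.58 ± 0.26 (95% interval -1.1 to -0.06, adjusted p = 0.0951) and was not called. With library totals alone the call of Spink4 was lost (0.16, adjusted p = 0.583) and Muc2 was called as lower, at -2.27. In aged mice Zg16 (-3.12), Clca1 (-3.10), Fcgbp (-2.95), Agr2 (-1.79) and Tff3 (-1.43) were lower, as were 11% of all genes. Spink4 (1.80) and Muc13 (0.69, but -0.76 with library totals alone) were higher, as were 13.8% of all genes, and Muc2 was at -0.47 ± 0.26 (adjusted p = 0.189). With the animal as a block, 1874 genes were called between aged Paneth samples and progenitors in place of 3295, the same number of members, 7, among them. Ranges did not overlap, in either direction, for 5 of the 8 genes in young and 3 of the 8 in aged mice, against 2.79% and 1.94% of all genes. Summed enterocyte markers had a median of 777 CPM in young progenitors and 1520 CPM in young Paneth samples, but the genes did not move together. Over both ages the medians of Apoa1, Apoa4, Fabp1, Rbp2 and Lct were higher in Paneth samples. Those of Alpi (173 and 82.7 CPM in progenitors and Paneth samples), Sis (155 and 60 CPM), Fabp2 and Slc5a1 were lower. The part of these markers was not tested.

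The makeup of the 8 genes' counts followed these differences. In progenitors Fcgbp took a median of 26.6% of the counts, Zg16 20.3%, Tff3 17.5% and Agr2 13.6%, with Muc2 between 6.67% and 9.69% in all 20 samples. The surface mucin Muc13 took a median of 36.9% in ISCs, between 15.2% and 59.5%, against 2.56% in progenitors. In Paneth samples Spink4 took 27% against 2.61% in progenitors, and Muc2 15.4% against 8.22%, whereas Zg16 took 6.19% and Fcgbp 9.38%. Shares compare 1 gene across gates and are not levels per molecule.

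**Figure D3:**
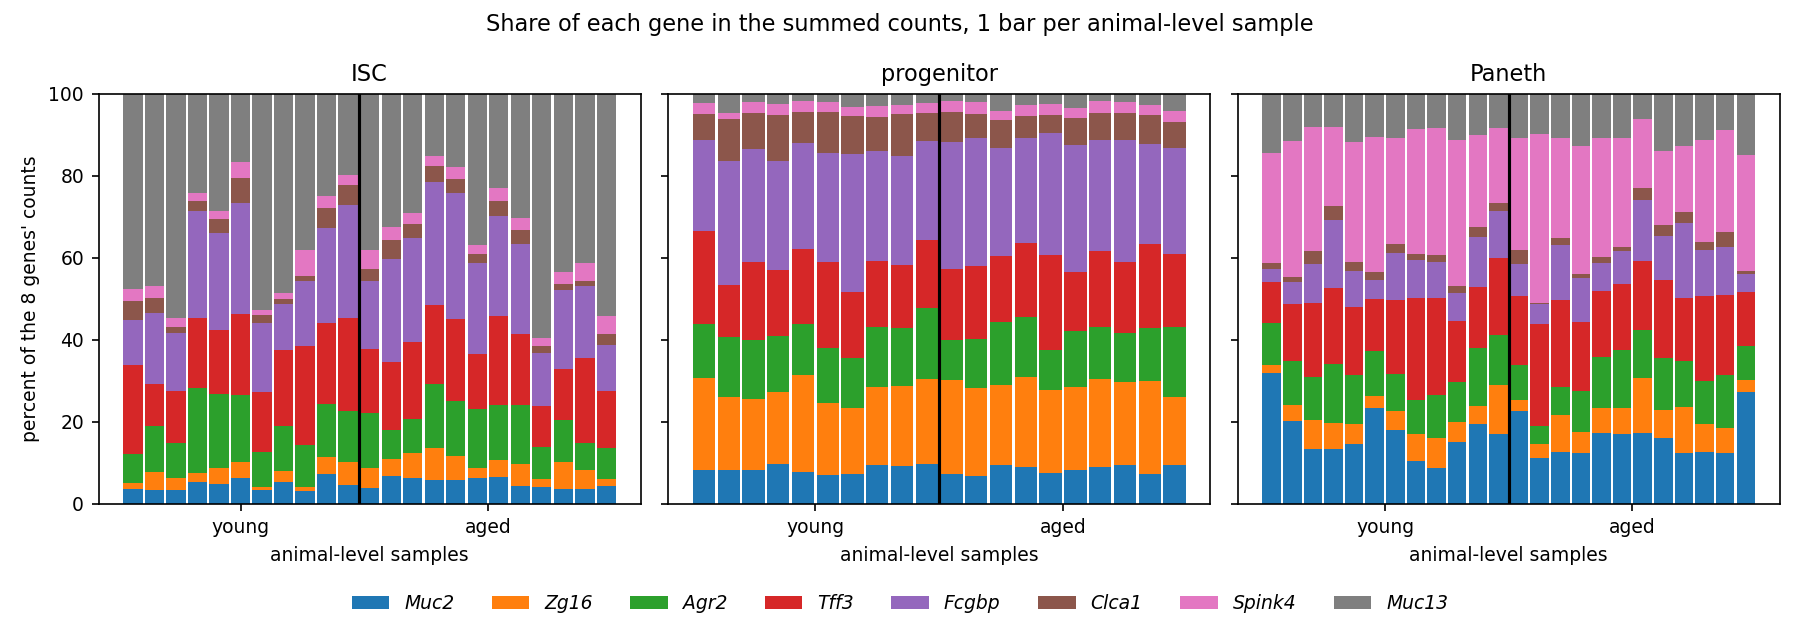
Percent of the 8 genes' summed counts taken by each gene, 1 bar per animal-level sample, young samples left of the black line and aged samples right of it. Muc13 (grey) fills a median of 36.9% in ISCs, Spink4 (pink) 27% in Paneth samples, and Fcgbp 26.6% in progenitors.

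The next question is whether age changed these genes. No member was called in any gate: 0 of 8 in ISCs, where 0.351% of all genes were called, 0 of 8 in progenitors (0.728%) and 0 of 8 in Paneth samples (0.0686%). Young and aged ranges overlapped for all 8 genes in all 3 gates, and did not for 0.0527% of all genes in ISCs, 0.0602% in progenitors and 0.00753% in Paneth samples. At an unadjusted p under 0.05 the counts were 0, 0 and 2 of 8, against 8.9%, 9.06% and 6.83% of all genes. DESeq2, limma-voom and the other alternatives also called 0 of 8 in each gate, the lowest adjusted p among them being 0.107. All animals of 26 and 27 months were male.

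In ISCs Zg16 had 6.242, 28.83 and 100.2 CPM (lowest, median, highest) in 11 young samples and 15.5, 55.89 and 163.8 CPM in 12 aged ones. The 2 ranges overlapped over most of their length, and the difference was 0.76 ± 0.43 (95% interval -0.13 to 1.65, adjusted p = 0.659). Muc2 had 26.42, 50.65 and 123.2 CPM in young and 36.82, 51.94 and 133.7 CPM in aged ISCs, a difference of 0.30 ± 0.27 (adjusted p = 0.841). The other 6 genes lay between -0.09 (Clca1) and 0.32 (Spink4), and the median over the 8 was 0.2. Without young female ISC sample 6 the differences of Muc2, Zg16 and Spink4 were 0.51, 0.95 and 0.58 (adjusted p = 0.468, 0.521 and 0.356), and those of Agr2 and Clca1 turned from -0.02 and -0.09 to 0.14 and 0.2. Among the 13 samples whose names end in 1, the set with samples in all 4 groups of age and sex, Zg16 was at 1.45 (adjusted p = 0.195), Fcgbp at 0.78 (adjusted p = 0.111) and Muc2 at 0.75 (adjusted p = 0.258), and Agr2 and Clca1 turned to 0.21 and 0.62. With the name ending as a term in the fit, Zg16, Fcgbp and Muc2 were at 1.28, 0.66 and 0.58 (adjusted p = 0.215, 0.107 and 0.181). The ISC age values were thus larger within the sets than pooled for these genes, and none was called.

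In progenitors the gel mucin and the folding enzyme stayed nearest to no difference. Muc2 had 770.5, 1744 and 2414 CPM in young and 856.5, 1620 and 2790 CPM in aged samples, a difference of 0.07 ± 0.24 (95% interval -0.44 to 0.58), and Agr2 differed by -0.06 ± 0.22. Clca1 had the largest value, -0.37 ± 0.27 (adjusted p = 0.764), with 966.3, 1758 and 2882 CPM in young and 614.7, 1237 and 2509 CPM in aged samples. Muc13 had the narrowest interval of the 8, -0.08 to 0.27 around 0.09. The intervals of the 8 genes reached from -0.94 (Clca1) to 0.96 (Spink4), so a true difference inside a gene's own interval remains compatible with these animals.

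In Paneth samples all 8 values were above 0, with a median of 0.29 against 0.01 over all genes, and none was called. Several of these signs rest on few animals: Agr2, Clca1 and Spink4 were at -0.14, -0.03 and -0.02 without the animals of 26 and 27 months, Muc2 and Clca1 at -0.01 and -0.14 without aged female Paneth sample 1, and Agr2 at -0.01 without aged male Paneth sample 2. Muc13 had 455.8, 698.2 and 973.7 CPM in young and 661.8, 860.8 and 1265 CPM in aged samples, and differed by 0.33 ± 0.13 (unadjusted p = 0.0111, adjusted p = 0.488 by edgeR). Tff3 had 588.2, 1116 and 2082 CPM in young and 784.8, 1333 and 2406 CPM in aged samples, and differed by 0.35 ± 0.16 (unadjusted p = 0.0328, adjusted p = 0.673 by edgeR). Zg16 and Fcgbp had the largest values, 0.52 ± 0.32 and 0.44 ± 0.29, which were 0.25 and 0.27 without aged male Paneth sample 2. Summed enteroendocrine markers ran from 181 to 3080 CPM (median 899) in young and from 211 to 3580 CPM (median 1910) in aged Paneth samples, and summed Paneth markers from 99700 to 291000 (median 148000) and from 109000 to 297000 CPM (median 203000). Mitochondrially encoded transcripts took 51.4% to 73.4% of the counts in young (median 61.4%) and 31.4% to 65.8% in aged Paneth samples (median 55%); the part of these measures in the age values was not tested. With library totals alone the median of all genes in this comparison was 0.24.

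Age differences were then compared between the sexes and between the gates. In ISCs the difference of the male and the female age effect was below 0 for all 8 genes, with a median of -1.17 against 0.00 over all genes. Zg16 had the largest value, -1.45 ± 0.84 (adjusted p = 0.789 by edgeR). Tff3 had the lowest p, at -1.31 ± 0.51 (unadjusted p = 0.0192, adjusted p = 0.663 by edgeR), and Muc2 was at -1.16 ± 0.54 (unadjusted p = 0.0425, adjusted p = 0.698 by edgeR). Female ISCs had 8 of 8 values above 0 (median 0.71) and male ISCs 6 of 8 below 0 (median -0.31). The genes varied together between animals in this gate, so 8 equal signs are not 8 separate observations. Without young female ISC sample 6 the values of Tff3 and Muc2 were -1.66 and -1.6 (adjusted p = 0.446 and 0.375). Within the samples whose names end in 1 they were -1.18 and -1.41 (adjusted p = 0.673 and 0.642), and with the name ending as a term -1.10 and -1.08. Without the animals of 26 and 27 months, all male, they were -1.39 and -1.36 (adjusted p = 0.839). In Paneth samples Tff3 was at -0.94 ± 0.32 (unadjusted p = 0.00512, adjusted p = 0.809 by edgeR) and Spink4 at -0.79 ± 0.31 (unadjusted p = 0.0137, adjusted p = 0.865 by edgeR). Progenitor values lay between -0.29 and 0.06.

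No gene of the table was called for a sex difference in the age effect in any gate (0%, 0% and 0% of genes tested), and so 0 of 8 members. The age effect in progenitors against that in ISCs was called for 0 of 8 members (0.00753% of all genes), that in Paneth samples against ISCs for 0 of 8 (0.0376%) and that in Paneth samples against progenitors for 0 of 8 (0%). At an unadjusted p under 0.05 the member counts were 2, 0 and 2 of 8 for sex in ISCs, progenitors and Paneth samples, against 7.01%, 6.19% and 5.32% of all genes (838, 731 and 621). For the gates they were 0, 0 and 0 of 8, against 2.19%, 8.91% and 7.27% of all genes. DESeq2 called 0, 2 and 0 genes for sex and 4, 36 and 17 for the gates.

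**Figure D4:**
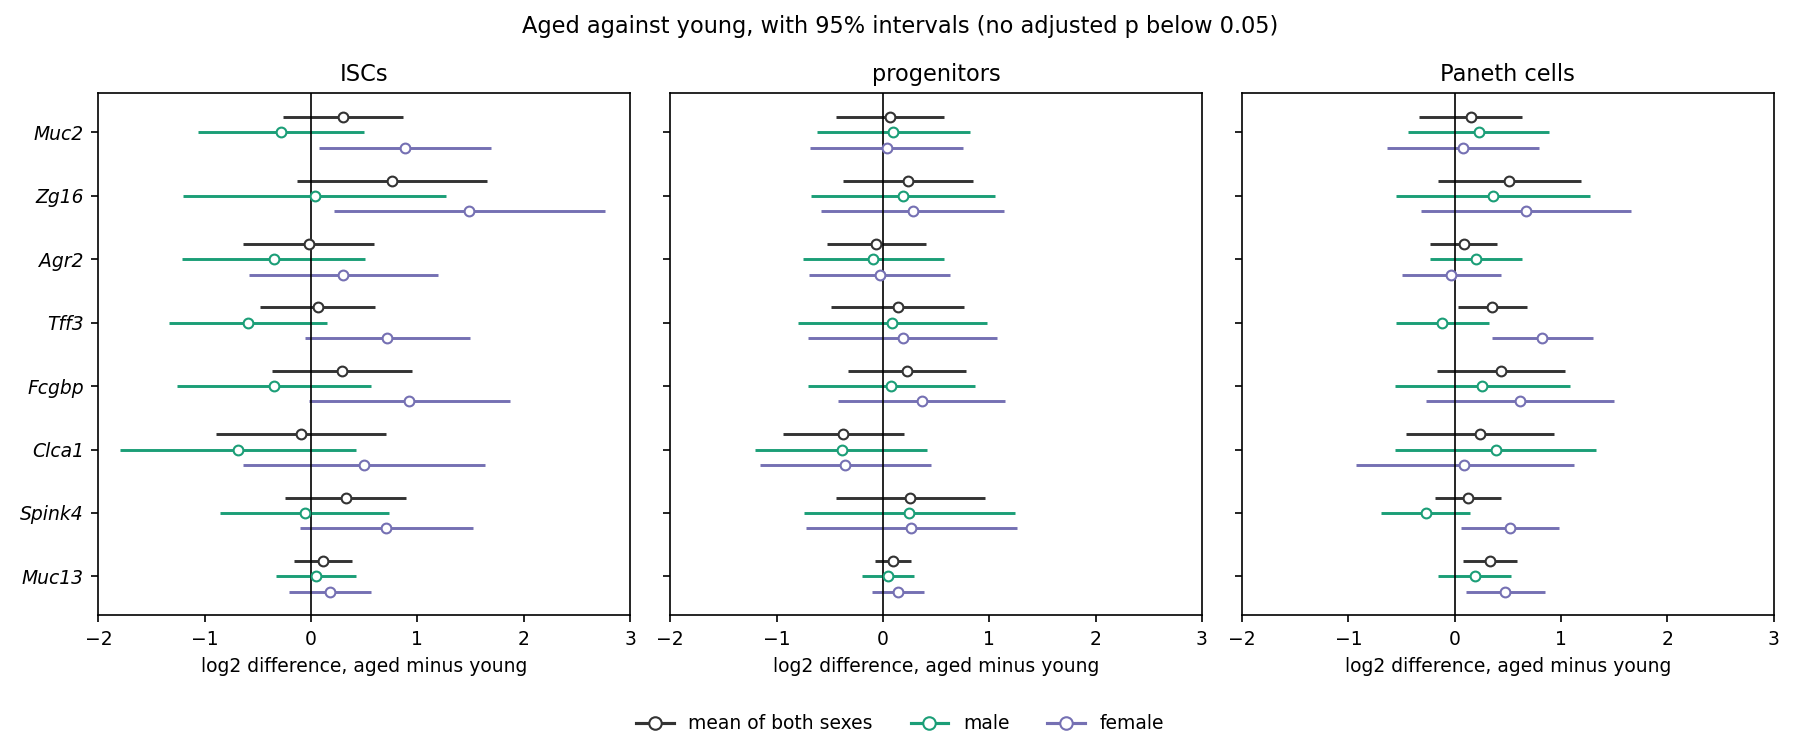
Log2 difference of aged minus young mice for each gene in each gate, as the mean of both sexes (dark), in males (green) and in females (purple), with 95% intervals; open points mark that no adjusted p was below 0.05. The female values of all 8 genes in ISCs lie above 0, and Zg16 has the widest interval there.

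How tightly the genes varied together between animals was tested in each gate on log2(CPM + 1), after the mean of each age and sex group was taken out. Muc2 was related to all 7 other genes in progenitors, to 5 of 7 in ISCs and to 3 of 7 in Paneth samples (permutation test of 100000 resamples, two-sided, adjusted over 21 relations). Among all genes with a mean of at least 10 CPM, 1.45% in progenitors, 1.13% in ISCs and 6.61% in Paneth samples had an r with Muc2 at least as high as the lowest of these members (Muc13, Zg16 and Spink4). All genes of a sample share its library, depth and scaling. No share over all genes was taken for the pairs of members without Muc2. None was taken for the relations to marker sums, mitochondrial percent and total counts, so those counts are not set against all genes.

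In 20 progenitor samples Pearson's r of Muc2 ran from 0.694 with Muc13 to 0.949 with Agr2 (Spearman's rho 0.719 and 0.922), and r with Spink4 was 0.947. The permutation p of Agr2 and Spink4, 1e-05, was the smallest that 100000 resamples can give. Without the 2 samples farthest from the median of Muc2 the 7 values ran from 0.561 to 0.918. All 28 pairs of members were related in this gate (r from 0.607 to 0.963, adjusted over 84 pairs in the 3 gates), and all 28 were called when the means of the name endings were taken out too (r from 0.63 to 0.965). Among 7366 genes with a mean of at least 10 CPM, the 6 non-members most like Muc2 in progenitors were Hepacam2 (r = 0.929), Capn9 (0.928), Guca2a (0.925), Ccl6 (0.919), Fxyd3 (0.918) and Slc12a8 (0.917), over 20 samples. Summed Paneth markers moved with the members here: r ran from 0.517 (Agr2, not called) to 0.702 (Fcgbp), and 7 of 8 were called by Pearson's r and 0 by Spearman's rho (permutation test, adjusted over 96 relations). Without the 2 samples farthest from the median of that sum its r with Muc2 was 0.325 in place of 0.561 (rho = 0.498). The relation was then not called (adjusted permutation p = 0.449), but leaving out extreme samples also narrows the range and lowers the number of samples.

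In 23 ISC samples r of Muc2 was 0.846 with Fcgbp, 0.776 with Tff3, 0.772 with Clca1, 0.769 with Agr2 and 0.647 with Zg16 (Spearman's rho 0.828, 0.694, 0.764, 0.748 and 0.632, permutation p at most 0.0009 for r). Spink4 was not called (r = 0.419, adjusted permutation p = 0.0615), and Muc13, with a negative r, was called by Spearman's rho (-0.501, adjusted permutation p = 0.0212) and not by Pearson's r (-0.382). The r of Muc13 was negative with all 7 genes and called with Agr2 (-0.672, rho = -0.697), Fcgbp (-0.545, rho = -0.65) and Clca1 (-0.481, rho = -0.507). Without the 2 samples farthest from the median of the other gene of the pair these were -0.728, -0.679 and -0.523.

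These ISC relations did not all hold within the sets of sample names. With the mean of each age, sex and name ending taken out, Muc13 had an r of 0.0414 with Agr2, 0.166 with Fcgbp and 0.179 with Clca1, none of them called (permutation test, adjusted over 28 pairs), and 0.497 with Muc2 (adjusted permutation p = 0.0473, but 0.0761 by Spearman's rho). Muc2 kept its relations to Tff3 (0.606), Fcgbp (0.566) and Clca1 (0.558), of which that to Tff3 was called by Spearman's rho too, and those to Zg16 (0.383) and Agr2 (0.284) were lost. Of the 28 pairs 9 were called within the sets, but 8 set means were taken out of 23 samples. The permutation took no account of those means, so its p-values are too small and these calls are uncertain. Pooled, total counts had r = -0.685 with Agr2, -0.584 with Fcgbp and 0.553 with Muc13 (rho = -0.696, -0.669 and 0.639, adjusted permutation p = 0.00864, 0.0295 and 0.0412 for r). Summed Paneth markers had r = -0.668 with Agr2, -0.47 with Fcgbp and 0.482 with Muc13 (rho = -0.641, -0.494 and 0.552, adjusted permutation p = 0.00864, 0.0857 and 0.0847 for r). Within the sets the r of total counts with these 3 genes was -0.0577, 0.302 and 0.425 and that of the markers -0.286, -0.0109 and 0.0837, none called over 32 relations.

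In 24 Paneth samples Muc2 was related to Muc13 (r = 0.766, rho = 0.748, adjusted permutation p = 3.82e-05), Agr2 (r = 0.495, rho = 0.512) and Spink4 (r = 0.45, rho = 0.409, adjusted permutation p = 0.0384 by r and 0.0645 by rho). Without the 2 samples farthest from the median of Muc2 these values were 0.782, 0.281 and 0.363 (adjusted permutation p = 0.000126, 0.237 and 0.135). The calls of Agr2 and Spink4 were then lost, but leaving out extreme samples also narrows the range and lowers the number of samples. By the size of r with Muc2, Muc13, Agr2 and Spink4 ranked 13, 365 and 511 among 7726 genes in this gate. With Zg16 and Fcgbp its r was -0.0171 and -0.0148, against 0.931 and 0.885 in progenitors; the difference of r between gates was not tested. Zg16, Fcgbp and Clca1 were related to each other, at r = 0.83 for Zg16 with Fcgbp (rho = 0.679), 0.746 for Fcgbp with Clca1 (rho = 0.797) and 0.53 for Zg16 with Clca1 (rho = 0.453), each called over the 84 pairs. Without the 2 samples farthest from the median of the gene named first in the pair these were 0.697, 0.613 and 0.236. The last was no longer called (adjusted permutation p = 0.344). Of the 28 pairs in this gate 14 were called, with r from -0.165 to 0.83.

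Muc2, Spink4 and Muc13 also moved with the Paneth markers. Across the 24 Paneth samples r with the sum of these markers was 0.796 for Spink4, 0.714 for Muc13 and 0.695 for Muc2 (Spearman's rho 0.774, 0.663 and 0.736, adjusted permutation p = 0.00096, 0.00528 and 0.00736 over 96 relations). It was 0.741, 0.661 and 0.662 without the 2 samples farthest from the median of that sum. The other 5 genes ran from -0.293 (Fcgbp) to 0.184 (Tff3) and none was called. The mitochondrial percent had r = -0.543 with Muc2 (rho = -0.422) and total counts r = 0.535 (rho = 0.501, adjusted permutation p = 0.0417 and 0.0464 for r), and the part of these measures in the relations was not tested. The 6 non-members most like Muc2 in this gate, among 7726 genes, were Ssr3 (r = 0.844), P2rx4 (0.841), Ranbp9 (0.828), Neat1 (0.822), Rnase4 (0.812) and Galnt12 (0.796), over 24 samples. None of the 6 genes nearest to Muc2 in progenitors is among them.

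**Figure D5:**
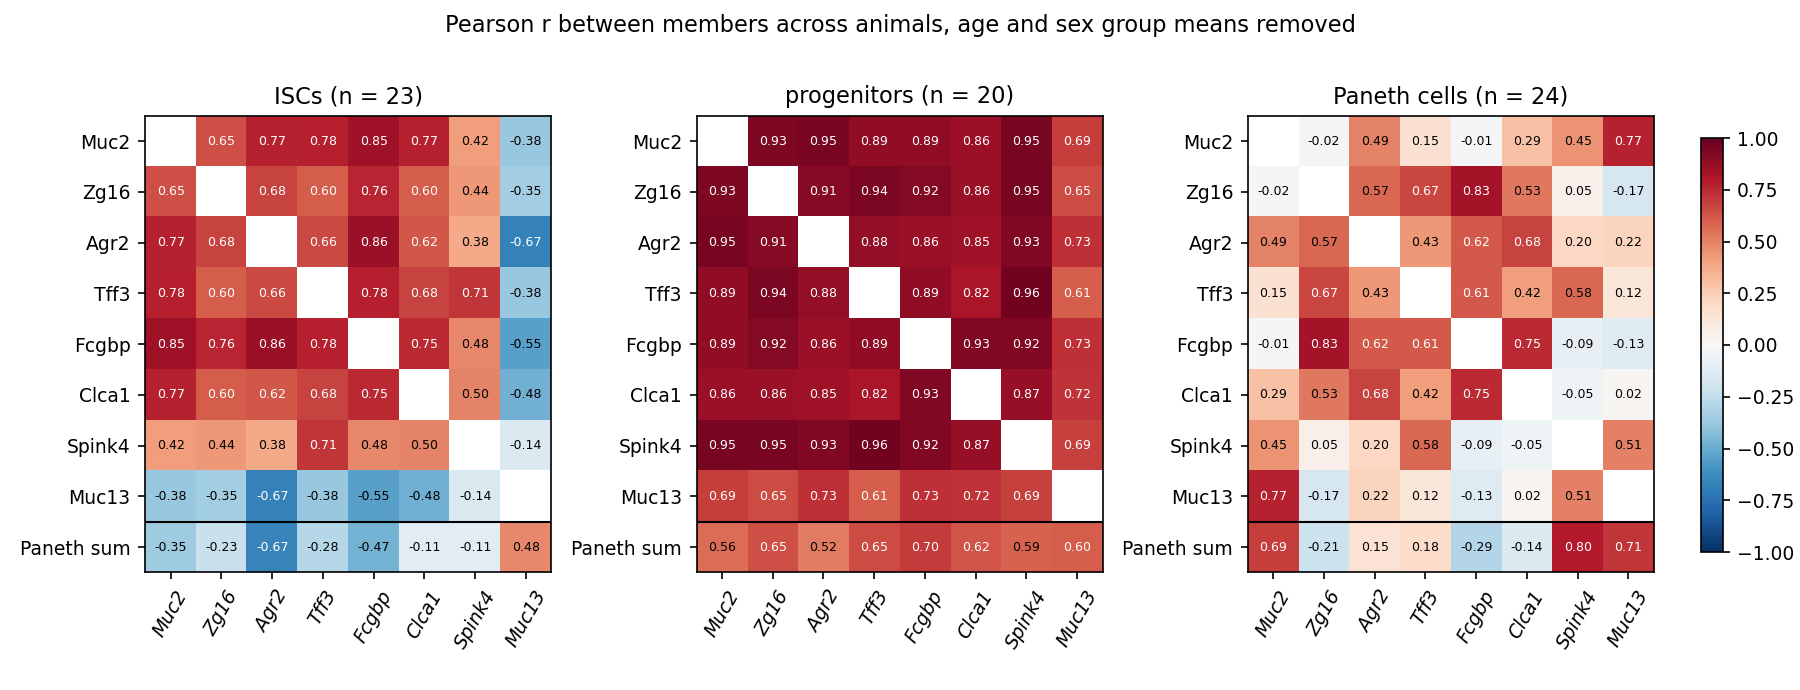
Pearson r between each pair of genes across the animals of a gate after removal of age and sex group means, with the r of each gene to the summed Paneth markers in the bottom row; red is positive, blue negative. Progenitors are red throughout (0.607 to 0.963), Muc13 is blue in ISCs, where its r with the other genes ran from -0.1 to 0.497 within the sets of sample names, and in Paneth samples Muc2, Spink4 and Muc13 are red in the bottom row (0.695 to 0.796).

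Repeat libraries of the same animal bound the precision of the Paneth values. Here log2(CPM + 1) was taken from counts divided by the library total without mitochondrially encoded genes, with no TMM scaling. The spread between animals includes differences of age and sex. Over the 69 libraries of 24 animals the SD within an animal was 0.21 for Muc2, against 0.501 between animals, and 0.212 for Spink4, against 0.359. It was 0.425 and 0.772 for Zg16 and 0.32 and 0.749 for Fcgbp. For Clca1 (0.754 within, 0.717 between) and Muc13 (0.251 and 0.215) the spread within an animal was larger than that between animals. The lowest count of Clca1 in a library was 21, and no member was at 0 in any.

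The genes that make, sugar-coat and release mucus were followed through 6 lists. Of 9 transcription factors of the goblet lineage, 6 were higher and 0 lower in young progenitors than in ISCs, with a median of 2.26 over the list against -0.03 over all genes, of which 13.3% were higher and 9.47% lower. They included Spdef (3.50 ± 0.37), which drives goblet cell maturation, Creb3l1 (3.29 ± 0.31), Atoh1 (2.77 ± 0.32), the factor that commits cells to the secretory lineage, and Creb3l4 (2.26 ± 0.29). Between young Paneth samples and progenitors, where 14.1% of all genes were higher and 12% lower, 1 of the 9 was called as higher, Foxa1, at 0.96 ± 0.26 (adjusted p = 0.00306), which turned to -0.82 with library totals alone.

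Of 21 tested genes of mucin O-glycosylation, 15 were higher and 0 lower in young progenitors than in ISCs (median 1.09), against 13.3% and 9.47% of all genes. St3gal4, which adds sialic acid, led with 4.66 ± 0.27, then Gcnt3, which makes branched O-glycan cores, with 3.85 ± 0.44, and C1galt1c1, the chaperone of the core 1 enzyme, with 1.83 ± 0.21. In young Paneth samples against progenitors 7 of the 21 were lower and 2 higher, against 12% and 14.1% of all genes (median -0.43). St3gal4 was at -1.11 ± 0.23 and Gcnt4 at -1.87 ± 0.43. Of the 2 higher, 1 turned lower with library totals alone. Of 16 folding and early secretion genes 14 were higher and 0 lower in young progenitors than in ISCs (median 1.34), among them Xbp1, a factor of the unfolded protein response, at 1.35 ± 0.13 and Txndc5 at 1.95 ± 0.18. Against progenitors 8 of the 16 were lower and 2 higher in young Paneth samples, both of the latter turning lower with library totals alone (median -0.55), with Txndc5 at -1.27 ± 0.18 and the chaperone Hspa5 at -0.89 ± 0.15.

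Of 13 genes of granule transport and release 9 were higher and 0 lower in young progenitors than in ISCs (median 1.61), against 13.3% and 9.47% of all genes. Scin, an actin-severing protein, led with 5.64 ± 0.61, then Rep15 with 4.82 ± 0.51. In young Paneth samples Scin and Rep15 were lower than in progenitors, by -3.94 ± 0.54 and -1.93 ± 0.43, and Rab3d and Stxbp2 higher, by 0.76 ± 0.15 and 0.94 ± 0.13, which turned to -0.94 and -0.79 with library totals alone. Of 14 tested other goblet markers 13 were higher and 0 lower in young progenitors than in ISCs (median 3.87), such as the chemokine Ccl6 at 4.63 ± 0.35. In young Paneth samples 6 were lower and 3 higher than in progenitors, against 12% and 14.1% of all genes. Of the 3 higher, 1 turned lower with library totals alone.

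The other mucins and mucus layer proteins did not move as 1 group. Of 13 tested, 6 were higher and 4 lower in young progenitors than in ISCs (median -0.33), against 13.3% and 9.47% of all genes. Guca2a, a guanylin peptide, rose by 4.70 ± 0.33, Klk1 by 2.93 ± 0.19 and Lypd8, which keeps flagellated bacteria off the epithelium, by 1.56 ± 0.10. In young Paneth samples against progenitors 3 were higher and 3 lower, against 14.1% and 12% of all genes. Guca2b at 3.73 ± 0.38 and Muc3a at 1.5 ± 0.19 lay above and Lypd8 at -1.22 ± 0.09 below. With library totals alone 2 of the 3 higher genes turned lower, among them Muc3a at -0.21. The stomach mucins Muc5ac and Muc6 and their partners Tff1 and Tff2 were among the 9 that did not pass the filter. Muc3 and Muc3a are related mucins, and the Clca genes a family of neighbours, so reads that match more than 1 of them are a source of uncertainty.

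In aged mice the counts higher and lower in progenitors against ISCs were 6 and 1 of 9 transcription factors, 16 and 0 of 21 glycosylation genes, 14 and 0 of 16 folding genes, 9 and 0 of 13 release genes, 13 and 0 of 14 goblet markers and 5 and 5 of 13 mucus genes, against 14.1% and 11% of all genes. The lists were chosen with earlier results of these libraries known, so their counts are not independent evidence.

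With age, 1 gene of these 6 lists was called in ISCs and 1 in progenitors, where 0.351% and 0.728% of all genes were called. Galnt4, which starts O-glycan chains, was higher in aged ISCs by 0.81 ± 0.11 (adjusted p = 2.24e-05), the only 1 of 18 tested O-glycosylation genes to be called. It was at 0.75 (adjusted p = 0.000382) with the name ending as a term and at 0.69 (adjusted p = 0.0986) among the samples whose names end in 1. Muc3 was lower in aged progenitors by -0.58 ± 0.13 (adjusted p = 0.0191), the only 1 of 13 tested mucus genes. It was not tested again without the animals of 26 and 27 months, where 34 genes were called in place of 86. None of the listed genes was called in Paneth samples, where 0.0686% of all genes were called.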

How the data were processed

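Bulk RNA from 3 sorted crypt populations was read in 112 libraries made from 1 ng of RNA with a 3′-end method (SC3-seq), per the labels' protocols. Per the submitters' processing notes, the tools were cutadapt 3.0, STAR 2.7.9a, HTSeq 0.13.5 and DESeq2 1.30.1, with the build mm10; neither names a strand setting or an annotation release. The deposited tables hold raw read counts per gene, and the deposited CPM values equal those counts divided by library totals (largest difference 4.95e-10), so the counts were used. Levels are TMM-scaled CPM, printed on a linear scale unless log2 is named.

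Paneth technical libraries were summed per animal, and 67 samples were grouped by cell type, age and sex from the labels. Tests used edgeR 4.0.16 in R 4.3.3 (quasi-likelihood F test, TMM, filterByExpr with a minimum count of 10, Benjamini-Hochberg over all genes tested, called at an adjusted p below 0.05). Age was fitted within each gate and gates in 1 fit of all 67 samples over 13287 genes. An SE is the log2 difference divided by the square root of F. Relations used log2(CPM + 1) and permutation tests (scipy 1.17.1, 100000 resamples). The permutations took no account of the means removed, so their p-values are too small, most so within the sets of ISC sample names. Alternatives were DESeq2 1.42.0, limma-voom (limma 3.58.1), other scalings and filters, leaving out samples, blocks and, chosen after seeing the data, the ending of ISC and progenitor sample names (1, 2 or none). The scripts were tested on simulated data.

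The members and lists were chosen with earlier results of these data known. Named genes were all 8 members, up to 4 called genes of each list with the lowest p in a comparison, and the 6 genes most like Muc2. Samples of 1 animal in different gates pair by origin (median r of their deviations 0.0642 over 39 pairs). A Paneth sample labelled as the second of an aged male was not paired with the other gates of that animal name. Precision is limited by the total counts per sample given above and by the number of animals.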

Additional observations from a re-analysis of the deposited data

Results flagged for a closer look

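In 10 of the 96 groups of gene, cell type, age and sex, 1 sample lay far from the rest by Dixon's criterion. Normally distributed values meet it in about 1 group in 20. That rate is not a baseline here, because CPM on a linear scale were used and the groups share libraries. All 10 were high values. Young female ISC sample 6 was high in 4 genes. It had 123.2 CPM of Muc2 against 26.42 to 59.41 in the other 5 of its group, 394.5 CPM of Tff3 against 84.03 to 189.3, 119.9 CPM of Clca1 against 13.34 to 38.94, and 78.33 CPM of Spink4 against 19.18 to 26.19. Its name has no number. The 7 ISC samples of that set ran from 50.65 to 133.7 CPM of Muc2 and from 161.5 to 452.7 CPM of Tff3. They ran from 28.08 to 119.9 CPM of Clca1 and from 19.89 to 78.33 CPM of Spink4, with this sample the highest in both. Its summed stem cell markers were 7880 CPM against 8210 to 10300 in its group, and its enterocyte markers 133 CPM against 144 to 176. Its summed immune markers were 4.26 CPM against 0.737 to 3.98. Its summed Paneth markers, 222 CPM, lay within the range of the others. Without it the male minus female age difference of Muc2 was -1.6 (unadjusted p = 0.000936, adjusted p = 0.375 by edgeR) in place of -1.16.

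Aged male Paneth sample 2 had 1854 CPM of Zg16 against 164.4 to 632.9 in the other 6, and 2353 CPM of Tff3 against 784.8 to 1437. Its summed enterocyte markers were 4190 CPM against 848 to 2980, and their part in these values was not tested. Aged female Paneth sample 1 had 2597 CPM of Muc2 against 1043 to 1162 in the other 4, and 410.8 CPM of Clca1 against 38.05 to 145.7. Its summed Paneth markers were the highest of its group, 297000 CPM against 190000 to 284000, and without it the age differences of Muc2 and Clca1 in Paneth samples were -0.01 and -0.14. Aged female Paneth sample 3 had 818.1 CPM of Zg16 against 321 to 424.3, with summed enterocyte markers of 3080 CPM against 1110 to 1270. Young male progenitor sample 1 had 2882 CPM of Clca1 against 1478 to 1806 in the other 4, and summed Paneth markers of 1420 CPM against 834 to 1000.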

How the results depend on the processing

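Under the alternatives, 478 cell type values of members kept their direction and side of the threshold, 9 lost the call, 2 gained one and 7 reversed. Of the age values, taken with the age by sex values of unadjusted p below 0.05 by edgeR, 239 kept both and 15 reversed. With library totals alone, young Paneth samples against ISCs had 5 members called in place of 8 and 11466 of 13287 genes in place of 3878. Fcgbp (-0.45), Clca1 (-0.055) and Muc13 (-1.01) reversed. So did Fcgbp (-0.11) and Muc13 (-0.52) in aged Paneth samples against ISCs, and Muc13 against progenitors (-1.29 young, -0.76 aged). Clca1 in aged Paneth samples against ISCs was then not called (0.57, adjusted p = 0.14). Spink4 in aged Paneth samples against progenitors was not called (0.36), and Muc2 was (-1.88).

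No age value was called. In ISCs, limma-voom gave 0.083 for Agr2 and 0.37 for Clca1. In progenitors it gave -0.016 for Muc2, and in Paneth samples -0.079 for Clca1. Without animals of 26 and 27 months the values were -0.16 for Muc2 and -0.032 for Fcgbp in progenitors, and -0.14 for Agr2, -0.029 for Clca1 and -0.024 for Spink4 in Paneth samples. Leaving out each sample in turn changed no member's call. It moved the ISC values of Agr2 from -0.15 to 0.14, Tff3 from -0.031 to 0.24 and Clca1 from -0.21 to 0.2003, the progenitor values of Muc2 from -0.028 to 0.15 and Agr2 from -0.15 to 0.023, and the Paneth values of Muc2 from -0.01003 to 0.25, Agr2 from -0.0085 to 0.16 and Clca1 from -0.14 to 0.36.

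The alternatives by the ending of the sample names were chosen after seeing the data. With the ending as a term the ISC age values of Agr2 and Clca1 were 0.2038 and 0.3078, and among the samples ending in 1 they were 0.2134 and 0.6245; 45 and 18 genes were then called with age, and 1 and 0 with age by sex. Without the ISC samples ending in 1, 1413 and 1515 genes were called between young and aged progenitors and ISCs in place of 3021 and 3329, 2089 and 2570 between Paneth samples and ISCs in place of 3878 and 4000, and 0 for each age effect against ISCs.

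With the replicate number as a replicate block, 0 of 8 members were called for age or for age by sex in each gate, and the ISC values of Agr2 and Clca1 were 0.16 and 0.14. The numbers share no origin (median r of same-numbered deviations 0.0234, -0.00101 and 0.006). With the animal as a block, 8, 8 and 7 members were called in young and in aged mice, as without it. Of 13287 genes, 1635 (young) and 1894 (aged) were called between progenitors and ISCs. Between Paneth samples and ISCs 2806 and 3557 were called, and between Paneth samples and progenitors 2706 and 1874. In the comparisons of age effects 0 members were called. Over all genes 4 were called there in Paneth samples against ISCs and 0 in the others. Muc2 had 15 of 21 relations called in the main analysis, with a pseudocount of 0.1 and without mitochondrial genes.

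Counts over all genes moved more. DESeq2 called 106, 142 and 30 genes with age in ISCs, progenitors and Paneth samples, in place of 42, 86 and 8. For Paneth samples, library totals gave 22, limma-voom 14 and the first technical library 3. Without animals of 26 and 27 months, 34 genes were called in progenitors and 2 in Paneth samples. For age in Paneth samples against ISCs, 5 in the main analysis, the counts were 36 by DESeq2, 69 with first technical libraries, 8 without the oldest animals, 3 with library totals and 0 with 2 cell types. For Paneth samples against progenitors first technical libraries gave 26 and DESeq2 17, and for progenitors against ISCs DESeq2 gave 4 and 2 cell types 2, in place of 0 and 1. For age by sex the replicate block gave 7 in ISCs and no filter 4 and DESeq2 2 in progenitors, in place of 0. With library totals 11466, 11040, 10716 and 10110 genes were called between Paneth samples and the other gates, in place of 3878, 4000, 3474 and 3295, and 4684 in place of 3021 between young progenitors and ISCs with those 2 cell types alone. Without 1 sample at a time the age counts ran from 36 to 58 in ISCs, 65 to 102 in progenitors and 3 (without aged female Paneth sample 1) to 13 (without young female sample 6) in Paneth samples.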
